A study of Mus musculus with 36 samples.

Results

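The 9 genes Spi1, Irf8, Runx1, Maf, Mef2a, Mef2c, Sall1, Zfhx3 and Nfia encode transcription factors linked to the identity of microglia, the resident macrophages of the brain. They were taken by name from the 26348 genes of the count files. They were chosen by name with the levels and group differences of an earlier analysis of the same counts in view, so every comparison between the 6 groups counts as used in the choice. The tests below therefore describe each gene within a fit of all genes and give no independent support for the choice of the list. All 9 passed the filter on low counts.

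A microglial cell keeps its identity through layered transcription factors. PU.1, the product of Spi1, opens chromatin at macrophage enhancers, and IRF8 and RUNX1 bind together with it. Above that layer act factors that respond to the brain environment, above all to TGF-beta through SMAD proteins: SALL1, MEF2A, MEF2C and MAF.

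The study sorted microglia from the cortex and the hippocampus of male mice aged 6 months and asked how cells inside and outside a CD11c gate differ. The mice carried the transgenes APPswe and PSEN1dE9 (APP mice), driven by elements of the mouse prion promoter, and deposit amyloid, or were wild-type controls (WT). CD11c, encoded by Itgax, marks a subset of microglia around plaques. The 6 groups were, in each region, CD11c-negative WT microglia, CD11c-negative APP microglia and CD11c-positive APP microglia. Each group had 4 replicates except CD11c-positive APP hippocampus, which had 3, named 1-2, 2-3 and 4. The first pair of names may mark pools of animals that share animal 2. No CD11c-positive cells of WT mice were analysed here.

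The 36 libraries held 2660 barcodes, of which 2657 were kept as cells, with 956491 to 2340598 counts per library and a median of 19482 counts and 805 genes per cell. Library pairs shared 59 to 79 of 83 barcode sequences, which are plate barcodes. All 8 microglial markers had counts in every group. Markers of neutrophils and lymphocytes summed to at most 14.4 CPM, the count scaled to a fixed library total, and 1589 cells had a count of a marker of another cell type. The genotype tag in the labels went against the title in 17 of 36 libraries, among them every CD11c-positive hippocampal library, and the titles were used. For called members, values from the 19 libraries in which both matched are given where they could be computed, which excludes CD11c-positive hippocampus. A first number in the titles, possibly a library set, was shared by both gates of cortex within an animal. It differed between the groups in the hippocampal gate, genotype and region comparisons, where set and group cannot be told apart.

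Counts were summed over the cells of a replicate. Levels are in CPM with TMM scaling, and changes are on the log2 scale with their SE. Adjusted p values come from the quasi-likelihood test of edgeR, corrected over all 14892 genes tested by the Benjamini-Hochberg method. In such sums, fewer cells with a transcript and less RNA per cell cannot be told apart, so the share of cells with a count is given separately. Levels of different genes were set side by side per kilobase of exon. On that scale Nfia was highest in 5 of the 6 groups, from 129 CPM per kilobase in CD11c-negative APP hippocampus to 291 in WT hippocampus. In CD11c-positive APP hippocampus Irf8 stood at 113 and Nfia at 107 CPM per kilobase. In CPM not divided by exon length Nfia was highest in every group, with 1165 CPM there against 794 for Irf8. Per kilobase Runx1 was lowest in every group, at 7.96 to 15.1 CPM. Without division by length Sall1 was below Runx1 in every cortical group and in CD11c-positive hippocampus, and above it in the other hippocampal groups. Whether counts rise with exon length in these libraries was not tested, so the order of genes depends on the scale.

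The cortical gate separated 3 of the 9 genes. Maf, Zfhx3 and Nfia were lower in CD11c-positive than in CD11c-negative APP microglia of the same animals, and 0 were higher (edgeR adjusted p below 0.05). Across all genes tested, 1.23% passed in this comparison. The median log2 fold change of the 9 genes was -0.67, against 0.19 over all genes.

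Maf encodes the basic leucine zipper factor c-MAF, which binds enhancers in tissue macrophages. The gene lies on the minus strand of chromosome 8 at 115682942 to 115707794 (GRCm38). In APP cortex it stood at 1096, 915, 1152 and 1070 CPM in the 4 CD11c-negative replicates and at 286, 273, 266 and 233 CPM in the 4 CD11c-positive replicates. Every CD11c-positive value was below every CD11c-negative one, and the WT replicates at 977 to 1255 CPM lay among the CD11c-negative ones. The log2 fold change of Maf between the gates was -2.0 ± 0.26 (edgeR adjusted p = 5.33e-05). In the libraries whose tag matched the title it was -2.12 (adjusted p = 0.00892), and in cells with no count of another cell type's markers -2.14 (adjusted p = 0.0136).

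Zfhx3 encodes ATBF1, a very large protein with zinc fingers and homeodomains. It lies on the plus strand of chromosome 8 at 107942644 to 108961630. Zfhx3 stood at 1244, 1325, 1218 and 1118 CPM in the CD11c-negative and at 406, 275, 396 and 492 CPM in the CD11c-positive APP cortex replicates. The ranges did not overlap, and the WT cortex replicates, at 946 to 1246 CPM, were again with the CD11c-negative cells. The log2 fold change of Zfhx3 was -1.64 ± 0.20 (edgeR adjusted p = 2.39e-05), and -1.63 in the libraries with matching tags (adjusted p = 0.0171). Without the cells that had a count of another cell type's marker it was -1.37 and no longer passed (adjusted p = 0.101). That fit called 45 of 9914 genes at this gate, against 183 of 14892 in the main fit.

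Nfia encodes a nuclear factor I protein, best known for its part in the formation of astrocytes. It lies on the plus strand of chromosome 4 at 97772734 to 98118874. The CD11c-negative APP cortex replicates held 2747, 2463, 2638 and 2573 CPM of Nfia and the CD11c-positive ones 1689.5, 1624, 1424 and 1796 CPM. The groups did not overlap. The WT cortex replicates spread from 1562 to 2606 CPM and reached into both ranges. The log2 fold change of Nfia between the gates was -0.67 ± 0.16 (edgeR adjusted p = 0.0263). It did not pass in the libraries with matching tags (-0.66, adjusted p = 0.154), in cells without other cell types' markers (-0.77, adjusted p = 0.179) or when genes per cell entered the fit as a covariate (-0.41, adjusted p = 0.719). It was also lost without CD11c-negative replicate 4 or CD11c-positive replicates 2 or 3, with adjusted p values up to 0.113 over the fits that left out 1 replicate. At this gate 38 of 13944 genes passed with matching tags, 45 of 9914 without other markers and 40 of 14892 with the covariate. The main fit called 183 of 14892. The libraries with matching tags came from CD11c-negative replicates 3 and 4 and CD11c-positive replicates 1, 2 and 4.

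Beside the cortical gate, the median number of genes per cell was 570.0 to 866 in CD11c-negative and 903 to 1179 in CD11c-positive replicates. Mitochondrial counts made up 0.713% to 1.22% and 1.82% to 2.52%. The 6 astrocyte markers, all with counts in both groups, summed to 392 to 1115 CPM in CD11c-negative and 725 to 1856 CPM in CD11c-positive replicates. The 6 oligodendrocyte markers, with Mog at 0 in CD11c-negative cells, summed to 123 to 215 CPM and 305 to 517 CPM, and these ranges did not overlap. The 6 neuronal markers summed to 497 to 808 CPM and 575 to 914 CPM. Beside the values without cells that held such markers, their part in the results was not tested. When genes per cell entered the fit, Maf kept a log2 fold change of -1.81 (adjusted p = 0.0263) and Zfhx3 of -1.73 (adjusted p = 0.00614). The ranges of genes per cell did not overlap between the cortical gates, so this covariate and the gate cannot be fully told apart.

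**Figure D1:**
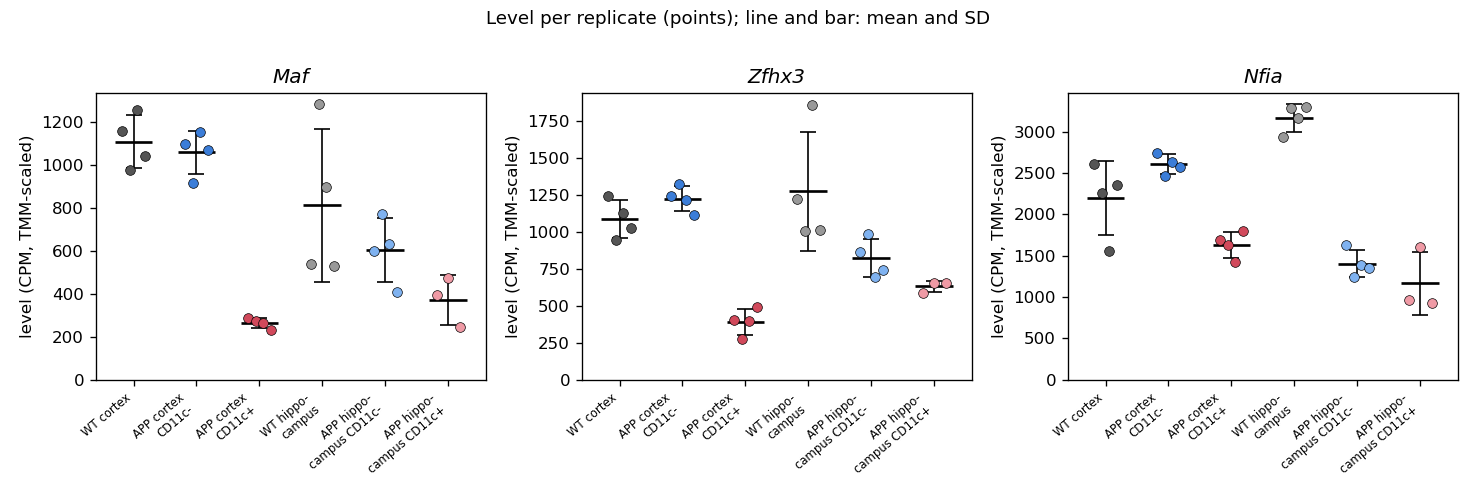
Level in CPM (vertical axis, from 0) of Maf, Zfhx3 and Nfia in the 6 groups (horizontal axis); points are replicates, lines and bars the mean and SD. The 4 CD11c-positive cortical replicates of Maf sit at 233 to 286 CPM, below all other cortical replicates, and the 4 WT hippocampal replicates of Nfia, at 2930.3 to 3296 CPM, sit above the other hippocampal ones.

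The other 6 genes did not pass at the cortical gate. Sall1 encodes a zinc finger repressor that among macrophages is largely restricted to microglia. Its levels were 189, 112, 243 and 61.1 CPM in CD11c-negative and 86.4, 20.8, 72.01 and 81.00 CPM in CD11c-positive replicates. The ranges overlapped through CD11c-negative replicate 4, and the log2 fold change was -1.22 ± 0.50 (edgeR adjusted p = 0.326).

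MEF2A and MEF2C are MADS-box factors that bind the same kind of AT-rich element. Mef2a spanned 283 to 491 CPM in CD11c-negative and 234 to 365 CPM in CD11c-positive replicates (-0.35 ± 0.29, 95% interval -0.96 to 0.26). Mef2c spanned 285 to 624 CPM and 403 to 538 CPM (0.03 ± 0.34, -0.68 to 0.73). Replicates of both genes overlapped between the gates. An exon of Mef2a overlaps one of Lysmd4, and whether counting used strand is not given, so reads of that stretch cannot be told apart.

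The lineage factors overlapped between the gates as well. Spi1, at 133 to 400.1 CPM and 180.3 to 253 CPM, gave -0.31 ± 0.35 (-1.03 to 0.40). Irf8, at 251 to 790.5 CPM and 506 to 596 CPM, gave 0.23 ± 0.30 (-0.39 to 0.85). Runx1, at 84.1 to 235 CPM and 79.7 to 136 CPM, gave -0.69 ± 0.50 (-1.71 to 0.34). The interval of Spi1 leaves out a fall as large as that of Maf and holds one as large as that of Nfia.

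**Figure D2:**
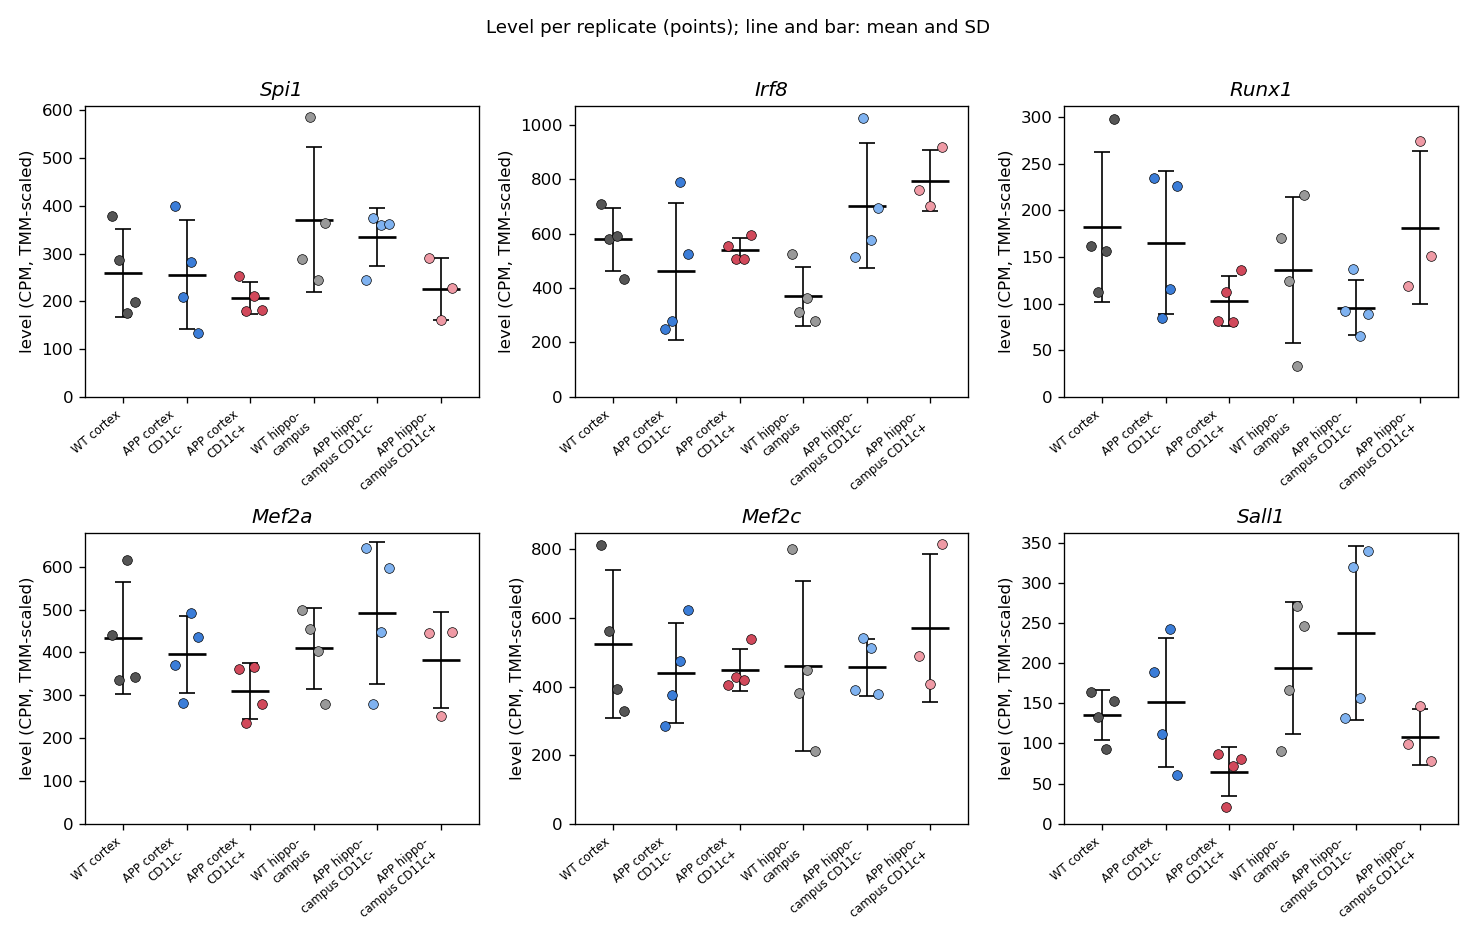
Level in CPM (vertical axis, from 0) of Spi1, Irf8, Runx1, Mef2a, Mef2c and Sall1 in the 6 groups (horizontal axis); points are replicates, lines and bars the mean and SD. Groups overlap for these 6 genes in most comparisons, and Irf8 is lowest on average in WT hippocampus, at 278 to 525 CPM.

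In hippocampus 0 of the 9 genes passed between the gates with edgeR, 1 had an unadjusted p below 0.05 and 1 passed with DESeq2. Of all 14892 genes tested 0.551% passed with edgeR and 10.9% had an unadjusted p below 0.05, and DESeq2 called 529. Maf stood at 599.7, 772, 634 and 409.7 CPM in the CD11c-negative and at 394, 473 and 247 CPM in the CD11c-positive replicates. The ranges overlapped, and the log2 fold change of Maf was -0.70 ± 0.27 (unadjusted p = 0.0174, adjusted p = 0.343; DESeq2 -0.91, adjusted p = 0.0426).

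Zfhx3 stood at 865, 984, 697 and 742 CPM outside and at 586, 654 and 656 CPM inside the hippocampal gate. These ranges did not overlap, yet the log2 fold change of -0.38 ± 0.21 did not pass (adjusted p = 0.556). Nfia stood at 1633, 1246, 1391 and 1348 CPM and at 959.8, 1606 and 930.2 CPM, with an overlap from replicate 2-3 (-0.27 ± 0.17, adjusted p = 0.652). Sall1 had a log2 fold change of -1.13 ± 0.55 (adjusted p = 0.459), from 131 to 340.2 CPM in CD11c-negative to 78.4 to 146 CPM in CD11c-positive replicates.

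The remaining members had overlapping ranges at the hippocampal gate. The log2 fold changes were -0.56 ± 0.38 for Spi1, 0.18 ± 0.32 for Irf8, 0.92 ± 0.53 for Runx1, -0.37 ± 0.32 for Mef2a and 0.32 ± 0.37 for Mef2c. Adjusted p values of these 5 genes ran from 0.584 to 1. Median genes per cell were 713 to 933 outside and 1053 to 1390 inside the hippocampal gate. Markers of border-associated macrophages summed to 0 to 12.1 CPM outside and 54.4 to 96.9 CPM inside it. The first numbers in the titles, possibly library sets, were 9 and 10 outside and 11 and 12 inside, so this number and the gate cannot be told apart.

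Whether the gate differed between the regions was tested as an interaction. With edgeR 0 of the 9 genes and 0% of all genes passed. For 3 of the 9 and 7.49% of all genes the unadjusted p was below 0.05. With DESeq2 1 of the 9 and 246 of all 14892 genes passed. For Zfhx3 the gate difference was less negative in hippocampus by 1.26 ± 0.29 on the log2 scale (unadjusted p = 0.000176, adjusted p = 0.372; DESeq2 1.12, adjusted p = 0.00356). For Maf it was 1.30 ± 0.37 (unadjusted p = 0.00166, adjusted p = 0.485) and for Runx1 1.61 ± 0.73 (adjusted p = 0.623). By edgeR, the lower Maf and Zfhx3 of the cortical gate were not shown to differ from the hippocampal gate.

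APP and WT microglia outside the gate were compared next. In cortex 0 of the 9 genes passed with edgeR, 0 had an unadjusted p below 0.05 and 0 passed with DESeq2. Of all 14892 genes 0% passed with edgeR and 9.09% had an unadjusted p below 0.05, while DESeq2 called 245. The log2 fold changes of the members in cortex ran from -0.33 ± 0.30 for Irf8 to 0.25 ± 0.16 for Nfia. Maf stood at 1108 ± 123 CPM (SD) in WT and 1058 ± 101 CPM in CD11c-negative APP cortex, with a 95% interval of the log2 difference from -0.58 to 0.45.

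In hippocampus Nfia was the 1 member that passed, and it was lower in APP mice. Of all genes tested 1.52% passed. The WT replicates held 2930.3, 3279.7, 3168 and 3296 CPM of Nfia and the CD11c-negative APP replicates 1633, 1246, 1391 and 1348 CPM. The lowest WT value was well above the highest APP value. The log2 fold change of Nfia was -1.17 ± 0.16 (edgeR adjusted p = 9.28e-05), in the libraries with matching tags -1.18 (adjusted p = 0.000743) and in cells without other cell types' markers -1.28 (adjusted p = 0.00331).

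Zfhx3 and Irf8 had unadjusted p values below 0.05 in the same comparison, as did 15.8% of all genes. Zfhx3 stood at 1224, 1009, 1861 and 1011 CPM in WT hippocampus, above the 697 to 984 CPM of CD11c-negative APP cells in every replicate (-0.63 ± 0.20, adjusted p = 0.117). Irf8 stood at 525, 312, 362 and 278 CPM in WT and at 514, 1026, 575 and 696 CPM in APP hippocampus. Its ranges overlapped through WT replicate 1, and the log2 fold change of Irf8 was 0.93 ± 0.30 (edgeR adjusted p = 0.149; DESeq2 1.09, adjusted p = 0.00883).

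Between these hippocampal groups the median number of genes per cell was 489 to 695 in WT and 713 to 933 in APP replicates. Mitochondrial counts made up 0.512% to 0.65% and 0.948% to 1.06%, and the 8 microglial markers summed to 10764 to 12222 CPM and 14975 to 17148 CPM. None of these 3 pairs of ranges overlapped, so these measures and genotype cannot be fully told apart, and their part in the result was not tested. With a covariate for genes per cell Nfia fell by 0.99 on the log2 scale (edgeR adjusted p = 0.0126). Astrocyte markers summed to 231 to 475 CPM in WT, with Aqp4 at 0, and to 175 to 384 CPM in APP cells, with Gfap and Aqp4 at 0. The first numbers in the titles, possibly library sets, were 7 and 8 in WT and 9 and 10 in APP hippocampus, so this number and genotype cannot be told apart.

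The genotype difference of Nfia itself differed between the regions. Its interaction was -1.42 ± 0.22 on the log2 scale (edgeR adjusted p = 0.00109), and 1 of the 9 genes passed against 1.01% of all genes. Nfia had stood at 2195 ± 447 CPM in WT and 2605 ± 119 CPM in CD11c-negative APP cortex, where the ranges overlapped. The interaction of Nfia did not pass in the libraries with matching tags (-1.23, adjusted p = 0.0885), in cells without other markers (-1.38, adjusted p = 0.0781) or when genes per cell entered the fit as a covariate (-1.19, adjusted p = 0.0514). In these fits, in that order, 0 of 13944, 6 of 9914 and 11 of 14892 genes passed, against 150 in the main fit. The main-fit interaction was 1.26 ± 0.43 for Irf8 (edgeR adjusted p = 0.169, DESeq2 adjusted p = 0.0186) and -0.81 ± 0.28 for Zfhx3 (edgeR adjusted p = 0.169).

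**Figure D3:**
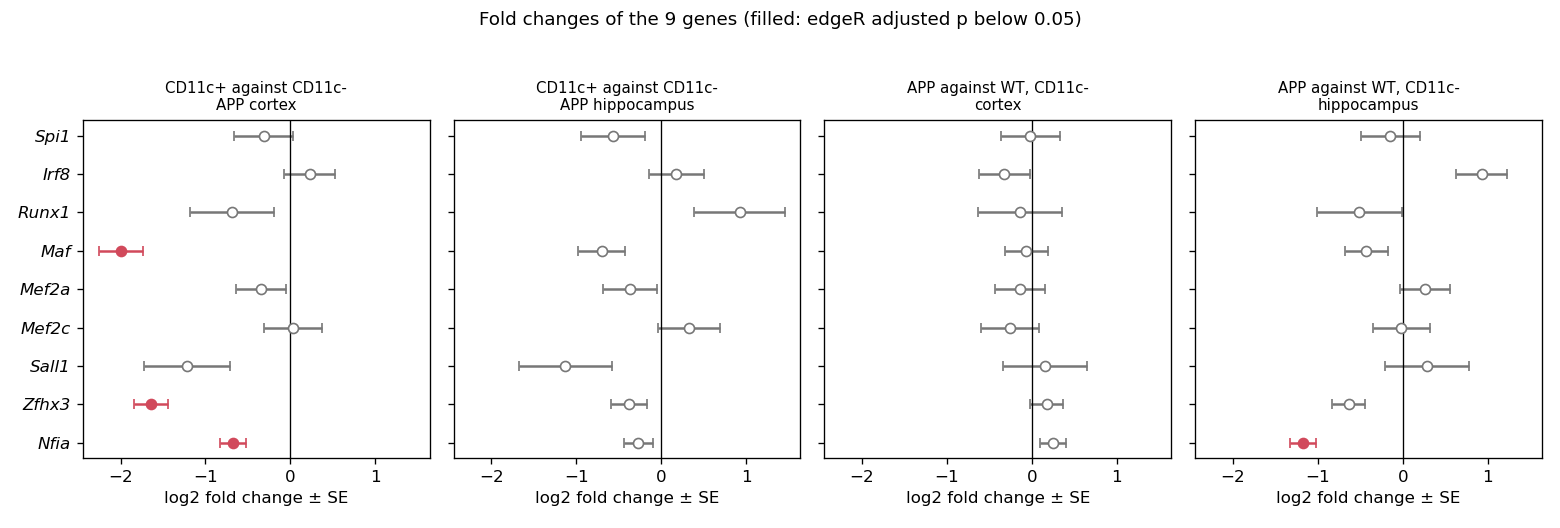
Log2 fold change ± SE (horizontal axis) of the 9 genes (vertical axis) between the gates in APP mice and between APP and WT cells outside the gate, in each region; filled points passed edgeR's adjusted p of 0.05. Maf, Zfhx3 and Nfia are filled at the cortical gate and Nfia, at -1.17, in the hippocampal genotype comparison, while no point is filled for genotype in cortex.

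CD11c-positive APP cells were also set against WT cells. These comparisons share the CD11c-positive samples with the gate comparisons and the WT samples with the genotype comparisons, so they are no separate evidence. In cortex 2 of the 9 genes passed, both lower, against 1.07% of all genes. Maf changed by -2.07 ± 0.26 (edgeR adjusted p = 3.91e-05) and Zfhx3 by -1.47 ± 0.20 (adjusted p = 9.59e-05), and neither overlapped. Nfia, with -0.43 ± 0.16 (edgeR adjusted p = 0.278; DESeq2 -0.55, adjusted p = 0.0226), and Sall1, with -1.06 ± 0.50 and no overlap (adjusted p = 0.412), did not pass with edgeR. In the libraries with matching tags Maf changed by -2.12 (adjusted p = 0.00671) and Zfhx3 by -1.61 (adjusted p = 0.0202). Without cells that held other cell types' markers Zfhx3 fell by 1.04 (adjusted p = 0.261). That fit called 47 of 9914 genes, against 160 in the main fit.

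In hippocampus 3 of the 9 genes were lower in CD11c-positive APP than in WT cells, against 2.07% of all genes. Nfia changed by -1.44 ± 0.18 (edgeR adjusted p = 2.43e-05), Zfhx3 by -1.01 ± 0.22 (adjusted p = 0.0094) and Maf by -1.13 ± 0.28 (adjusted p = 0.0304). WT Maf was uneven, at 541, 1282, 897 and 532 CPM, and its lowest value was above the highest CD11c-positive value of 473 CPM. Irf8 lay higher in every CD11c-positive replicate, at 761, 701 and 919 CPM, than in WT cells (1.10 ± 0.32, edgeR adjusted p = 0.0783; DESeq2 adjusted p = 0.0229).

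The number of genes per cell differed in this comparison. Medians were 489 to 695 in WT and 1053 to 1390 in CD11c-positive hippocampal replicates, with no overlap. This covariate and the group therefore cannot be fully told apart. Once genes per cell entered the fit 0 of the 3 genes passed, and the reason was not tested. The log2 fold changes were then -0.97 for Nfia, -1.16 for Zfhx3 and -0.77 for Maf (adjusted p = 0.542, 0.631 and 0.9996), and 2 of all 14892 genes passed, against 309 without the covariate. Leaving out WT replicate 2 or CD11c-positive replicate 1-2 or 4 ended the call of Maf (adjusted p up to 0.18), and leaving out 1-2 that of Zfhx3 (adjusted p = 0.0504). Over the fits that left out 1 replicate the log2 fold change of Maf ran from -1.39 to -0.87 and that of Zfhx3 from -1.17 to -0.85. The 6 markers of border-associated macrophages summed to 0 to 76.4 CPM in WT and 54.4 to 96.9 CPM in CD11c-positive cells, with Cd163 and Lyve1 at 0 in the latter. The 6 monocyte markers summed to 0 to 5.8 CPM and 28.99 to 112 CPM, with Plac8 and Chil3 at 0 in both. Their part in the result was not tested. Without other cell types' markers Nfia kept its call (-1.57, adjusted p = 0.000755), and Zfhx3 (-1.36, adjusted p = 0.21) and Maf (-1.67, adjusted p = 0.202) did not. That fit called 41 of 9914 genes, against 309 of 14892 in the main fit.

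Hippocampus was compared with cortex within each kind of cell. In WT cells 0 of the 9 genes passed with edgeR or DESeq2. Of all 14892 genes 1.63% passed with edgeR, and DESeq2 called 1571. An unadjusted p below 0.05 was found for 2 of the 9 genes and 22.2% of all genes. Those 2 were Nfia, higher in every WT hippocampal replicate (0.53 ± 0.16, adjusted p = 0.0785), and Irf8 (-0.65 ± 0.30, adjusted p = 0.206). Without WT cortex replicate 1 the adjusted p of Nfia was 0.0484.

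In CD11c-negative APP cells Nfia went the other way and was lower in hippocampus (-0.89 ± 0.16, edgeR adjusted p = 0.00221), the 1 member called against 2.29% of all genes. In the libraries with matching tags Nfia gave -0.91 (adjusted p = 0.0171). With the animal as a block, in a fit of these groups alone, its adjusted p was 0.0775, and 0 of the 9099 genes of that fit passed. Maf (-0.81 ± 0.25, adjusted p = 0.0952) and Zfhx3 (-0.58 ± 0.19, adjusted p = 0.127) did not overlap between the regions but did not pass.

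In CD11c-positive APP cells 0 of the 9 genes passed with edgeR, against 0.222% of all genes. With DESeq2 2 of the 9 and 648 of all 14892 genes passed. An unadjusted p below 0.05 was found for 2 of the 9 and 11.2% of all genes. Zfhx3 was higher in every hippocampal replicate (0.69 ± 0.21, edgeR adjusted p = 0.22; DESeq2 adjusted p = 0.0343). Nfia gave -0.49 ± 0.17 (edgeR adjusted p = 0.293; DESeq2 adjusted p = 0.0385). Neuronal markers summed to 295 to 1279 CPM in WT cortex and to 0 to 128 CPM in WT hippocampus, oligodendrocyte markers to 76.6 to 353 CPM and 0 to 39.3 CPM. In CD11c-positive cortex and hippocampus neuronal markers summed to 575 to 914 CPM and 44.9 to 157 CPM. Oligodendrocyte markers there summed to 305 to 517 CPM and 29.3 to 62.5 CPM. Astrocyte markers summed to 404 to 1587 CPM in WT cortex and 231 to 475 CPM in WT hippocampus. In CD11c-positive cells they summed to 725 to 1856 CPM in cortex and 134 to 146 CPM in hippocampus. The part of these markers in the regional values was not tested.

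Ordered by mean level over the 6 groups, most neighbours overlapped. Replicates of neighbouring groups were apart for Zfhx3, from CD11c-negative APP hippocampus (822 ± 129 CPM) to CD11c-positive hippocampus (632 ± 39.9 CPM) and on to CD11c-positive cortex (392 ± 89.1 CPM), and for Nfia between WT hippocampus (3169 ± 169 CPM) and CD11c-negative APP cortex. For Maf the order ran from WT cortex to CD11c-positive APP cortex (265 ± 22.6 CPM) with an overlap at each step.

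The share of cells with a count showed how far the sums followed the number of cells. A count of Maf was present in 51.6% ± 2.79 (SD over replicates) of CD11c-negative and 30.3% ± 5.03 of CD11c-positive cells of APP cortex. After each cell was thinned to 5000 counts the shares of Maf were 41.6% ± 5.17 and 19.5% ± 3.1. Among positive cells, pooled over the replicates of a group and not thinned, the median count of Maf was 19 and 5. The share and this pooled median were both lower inside the gate. The pooled medians here and below have no value per replicate, so their spread between animals is not shown.

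Zfhx3 followed with thinned shares of 60.9% ± 9.11 and 37.8% ± 10.4, and pooled medians of 17 and 9 counts in positive cells. For Nfia the thinned shares were 74.5% ± 4.65 and 72.2% ± 1.3 at the cortical gate and 74.4% ± 1.81 and 68.8% ± 3.74 in WT and CD11c-negative APP hippocampus. Its pooled median count in positive cells was 49.5 in WT and 22.5 in CD11c-negative APP hippocampus. The fit on numbers of cells with a count sets each gene against the detections of all genes. In that fit Nfia gave -0.71 at the cortical gate (edgeR adjusted p = 2.43e-05), where 1331 of the 4175 genes of the fit passed. In APP against WT hippocampus Nfia gave -0.67 (adjusted p = 0.000343), where 669 passed. Unthinned shares of cells with Nfia were 84.5% ± 5.53 and 82.3% ± 4.04 at the cortical gate. They were 85.0% ± 3.45 in WT and 80.5% ± 6.59 in CD11c-negative APP hippocampus. The folds of that fit are relative to all detections and do not by themselves show fewer cells with Nfia.

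Irf8 had counts in a thinned share of 14.4% ± 4.46 of WT, 32.7% ± 3.83 of CD11c-negative and 50.4% ± 10.5 of CD11c-positive APP hippocampal cells. In the same fit its genotype difference in hippocampus was 0.40 (adjusted p = 0.161). Sall1 and Runx1 were sparse, with unthinned shares between 8.12% and 28.4% as group means, and 1 cell held up to 74.1% of the Runx1 counts of a replicate and up to 56.7% of the Sall1 counts. In the fit on cells with a count Sall1 passed at the cortical gate (-0.92, edgeR adjusted p = 0.0151), where it had not passed on summed counts. That fit is set against all detected genes, so it does not by itself show fewer cells with Sall1, and it called 1331 of its 4175 genes at this gate. The thinned share of cells with Sall1 was 10.7% ± 6.47 outside and 7.69% ± 2.85 inside the cortical gate.

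**Figure D4:**
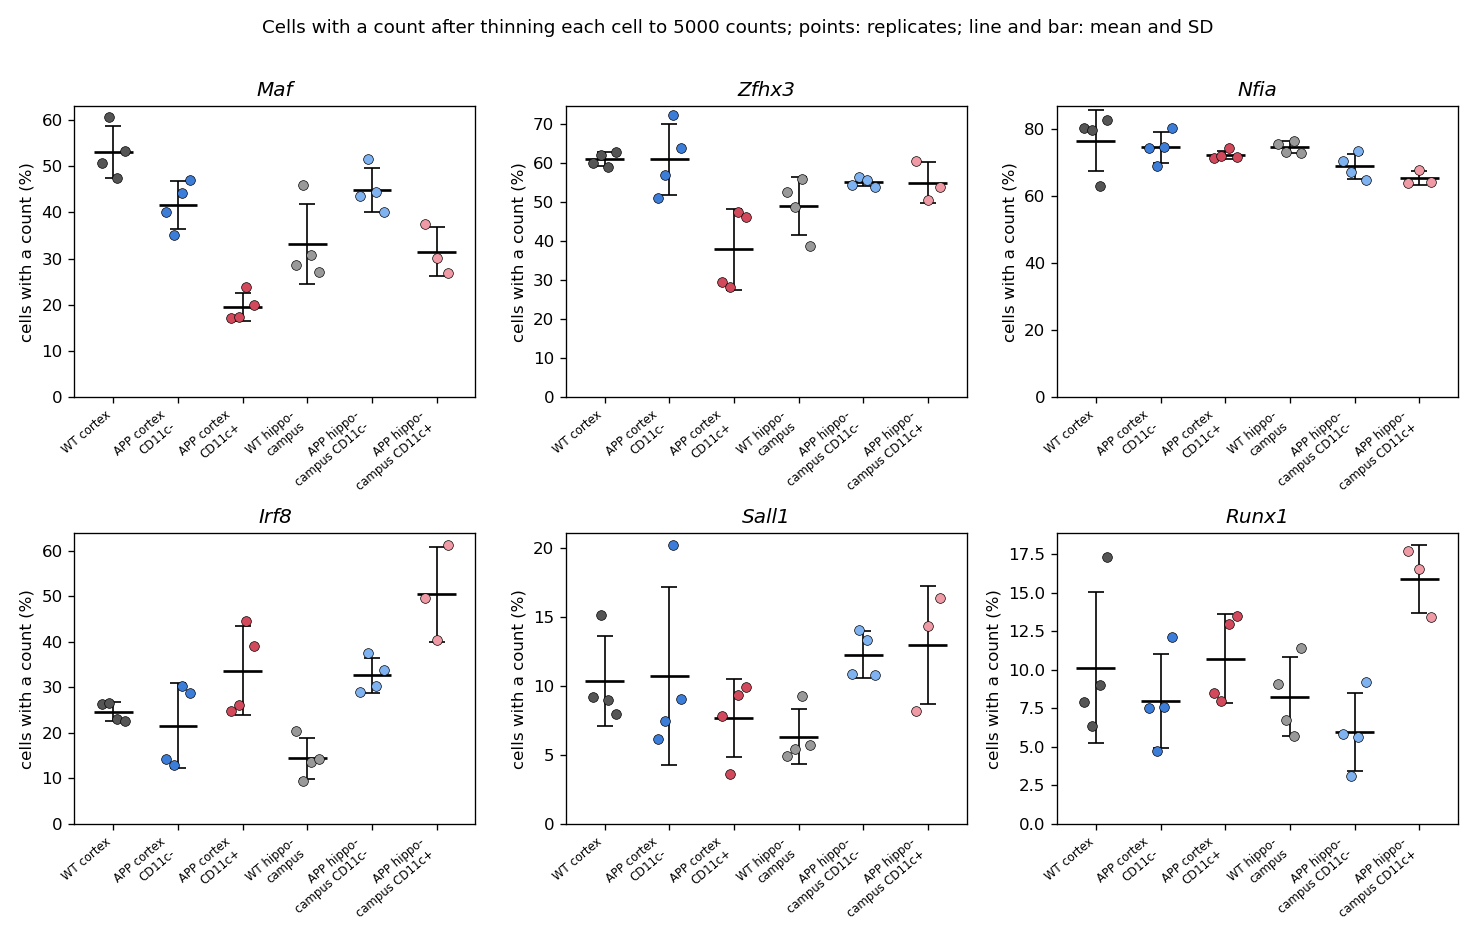
Share of cells with a count (vertical axis, %, from 0) of 6 of the genes after each cell was thinned to 5000 counts, in the 6 groups (horizontal axis); points are replicates, lines and bars the mean and SD. Maf drops from 41.6% to 19.5% between the cortical gates and Nfia has shares of 74.5% and 72.2%.

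The other genes of these programmes were taken from lists written with earlier results of these data known. Of 18 partners and upstream regulators, all tested, 3 were lower at the cortical gate and 0 higher, against 1.23% of all genes. They were Tgfbr1, a TGF-beta receptor chain (-1.07 ± 0.21, edgeR adjusted p = 0.00666), Csf1r, the receptor on which microglial survival depends (-0.80 ± 0.18, adjusted p = 0.0235), and Skil, a repressor of SMAD signalling (-0.65 ± 0.16, adjusted p = 0.0342). The median of this list was -0.48, against 0.19 over all genes. All 3 calls were lost in the libraries with matching tags (adjusted p = 0.454, 0.47 and 0.726, in that order) and when genes per cell entered the fit (0.0682, 0.449 and 0.722). In cells without other cell types' markers Tgfbr1 gave -0.41 (adjusted p = 0.68) and Csf1r -0.58 (adjusted p = 0.29). In the order given, those 3 fits called 38 of 13944, 40 of 14892 and 45 of 9914 genes, against 183 in the main fit. At the hippocampal gate 0 of the 18 passed, and 4 had an unadjusted p below 0.05 against 10.9% of all genes.

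In the hippocampal genotype comparison, beside the lower Nfia, 2 of the 18 partners were lower, Skil (-1.10 ± 0.16, edgeR adjusted p = 0.000178) and the ETS factor Ets1 (-1.19 ± 0.24, adjusted p = 0.00554). Skil stood at 3601 ± 797 CPM in WT and 1684 ± 188 CPM in CD11c-negative APP hippocampus. Of all genes 1.52% passed in this comparison. Of 37 other macrophage transcription factors tested, 1 was lower there, Bhlhe41, a basic helix-loop-helix repressor (-0.91 ± 0.17, adjusted p = 0.00248), whose replicates overlapped. With matching tags Ets1 gave -1.19 (adjusted p = 0.0923) and Bhlhe41 -0.87 (adjusted p = 0.0664), and neither passed. That fit called 106 of 13944 genes in this comparison, against 226 in the main fit. At both gates 0 of these 37 passed, with 6 and 3 at an unadjusted p below 0.05, against 12.1% and 10.9% of all genes.

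Among 21 tested paralogues of the 9 genes 0 passed at either gate, and 2 and 7 had an unadjusted p below 0.05, beside the same shares of all genes. Sall3, a relative of Sall1, was lower in CD11c-positive APP than in WT hippocampus (-1.76 ± 0.39, edgeR adjusted p = 0.0131). Nfib, a relative of Nfia, stood at 64.3 ± 47.0 CPM in WT cortex and 0.211 ± 0.423 CPM in WT hippocampus, where its 3 counts came from 1 replicate (adjusted p = 0.0143, and 0.403 with the animal as a block). It was also lower in CD11c-positive APP hippocampus than in cortex (edgeR adjusted p = 0.0336), and the hippocampal replicates together held 1 count of Nfib. Nfib is also expressed by neurons and astrocytes, whose markers in these groups were given with the regional comparisons. Their part in the Nfib values was not tested.

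Of 16 tested genes known to depend on PU.1, IRF8 or RUNX1 in myeloid cells, 2 were higher and 1 lower at the cortical gate. Of all genes 1.23% passed there. Tyrobp, an adaptor of the TREM2 receptor, changed by 1.01 ± 0.16 (edgeR adjusted p = 0.000485) and Cd68, a lysosomal protein of macrophages, by 1.30 ± 0.22 (adjusted p = 0.00119), while Csf1r was the lower one. At the hippocampal gate Tyrobp (1.02 ± 0.17, adjusted p = 0.00232) and Cd68 (1.03 ± 0.23, adjusted p = 0.033) were higher and 0 were lower. There 0.551% of all genes passed. Against WT, CD11c-positive APP cells had 3 of the 16 higher in cortex and 4 in hippocampus, with 0 lower. Of all genes 1.07% and 2.07% passed in either direction. The lists share genes, as Tyrobp is also in the disease-associated list and Csf1r in the partner and homeostatic lists. With matching tags the cortical-gate calls of Tyrobp (1.09, adjusted p = 0.0919) and Cd68 (1.24, adjusted p = 0.109) were lost. That fit called 38 of 13944 genes at this gate, against 183 in the main fit.

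Of 15 homeostatic genes 8 were lower at the cortical and 5 at the hippocampal gate, with 0 higher, against 1.23% and 0.551% of all genes in either direction. Tmem119, a microglial membrane protein, changed by -1.995 ± 0.15 and -2.20 ± 0.17 (edgeR adjusted p = 8.58e-09 and 2.59e-08). P2ry12, a purinergic receptor, changed by -1.34 ± 0.16 and -0.99 ± 0.17. Of 18 disease-associated genes 12 and 10 were higher and 0 lower, among them Apoe, a lipid carrier, with 3.52 ± 0.54 and 4.04 ± 0.56, and Cd63, a tetraspanin, with 1.97 ± 0.20 and 1.86 ± 0.21. With matching tags Apoe gave 3.22 at the cortical gate and did not pass (adjusted p = 0.065), in a fit where 38 of 13944 genes passed.

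The genes with the pattern most like each member were found over the 23 replicates, by Pearson's r of log2 CPM among 3480 genes of at least 50 CPM on average. The points share libraries and animals, so these values describe the samples. Maf was most like Cd47 (r = 0.87), Sema4b (0.85) and Klhl3 (0.84). Zfhx3 was most like Klhl3 (0.91), Ifngr1 (0.90) and Ivns1abp (0.88), and Nfia most like Kmt2d (0.92), Arglu1 (0.92) and Clasp2 (0.91).

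The other members had looser matches. The highest r was 0.82 for Irf8, with Cotl1, 0.81 for Sall1, with Gna15, 0.73 for Mef2c, with Smim11, 0.72 for Spi1, with Gm44951, 0.71 for Mef2a, with Macf1, and 0.66 for Runx1, with Rabgef1. Sall1 had Crybb1, a gene of the homeostatic list, among its matches (0.71).

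Promoters of the members were read from RefSeq (GRCm38.p6), as the 200 bases before each listed start. The table held 13 promoters of 7 of the 9 genes, with no entry for Maf and Spi1. Those of Zfhx3 and Nfia are shown because these genes changed, and 1 of Irf8 because it holds a match, in capitals, to a motif bound by a member.
Zfhx3, plus strand, chr8:108714444-108714643: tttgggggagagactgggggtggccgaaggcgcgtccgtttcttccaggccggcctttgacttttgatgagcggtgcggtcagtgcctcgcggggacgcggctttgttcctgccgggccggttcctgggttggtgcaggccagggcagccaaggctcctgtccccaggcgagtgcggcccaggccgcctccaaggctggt
Nfia, plus strand, chr4:97581743-97581942: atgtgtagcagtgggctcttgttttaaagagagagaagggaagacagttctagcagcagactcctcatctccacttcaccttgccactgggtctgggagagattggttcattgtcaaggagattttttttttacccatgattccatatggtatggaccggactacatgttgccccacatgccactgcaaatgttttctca
Irf8, plus strand, chr8:120738439-120738638: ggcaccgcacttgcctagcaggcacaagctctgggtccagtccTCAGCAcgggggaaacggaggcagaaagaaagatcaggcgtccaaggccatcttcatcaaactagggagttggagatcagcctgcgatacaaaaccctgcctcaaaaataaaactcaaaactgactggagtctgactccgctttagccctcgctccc

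On both strands the letters GAGGAAGT (PU.1 type), TGTGGT (RUNX) and TGCTGA (MAF type), and an IRF composite motif, were searched. No match was found in the windows of Zfhx3 and Nfia. The capitals in the Irf8 window are TGCTGA on the minus strand, and the only other match among the 13 windows was TGCTGA in 1 of Mef2c. Of all 32851 promoters, windows with these motifs made up 2.06%, 11.2%, 13.2% and 2.27%. The window of Nfia lies upstream of the gene span that GENCODE gives, and that of Zfhx3 lies inside it.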

How the data were processed

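Per the labels' protocols, cells were isolated mechanically in the cold, gated as CD11b-high and CD45-intermediate, and made into Smart-seq2-based libraries. Per the submitters' processing notes, UMI-tools 0.5.3, HISAT2 2.1.0, featureCounts 1.6.0 and GRCm38 were used. The authors deposited raw counts for each gene in each cell. Whether molecular identifiers were merged and whether strand was used are not given in the sources used here. Cells needed 200 or more genes and no more than 20% of counts from mitochondrial genes, doublets were not called, and cells were summed per animal, region and gate into 23 replicates of 1037425 to 4484427 counts. The sums were fitted in 1 model of 6 groups with edgeR 4.0.16 (R 4.3.3, TMM, filterByExpr, 17 residual degrees of freedom, quasi-likelihood test). DESeq2 1.42.0 was an alternative. Symbols came from GENCODE vM21. The fit was checked on simulated data. The members and lists were chosen with earlier results of these data known; all members are named, and from each list genes past adjusted p 0.05, up to 4 per comparison by smallest p, of which a part, picked after the values were seen, is printed. Replicates with 1 number come from 1 animal, per the titles; their deviations correlated at 0.045 to 0.072 across the cortical gates. Within cortex both gates of an animal also share the first number in the titles, possibly a library set.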

Additional observations from a re-analysis of the deposited data

Results flagged for a closer look

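One value of Spi1 stood apart from its group. CD11c-negative APP hippocampus replicate 1 held 245 CPM of Spi1 while the other 3 replicates held 360.3 to 374 CPM, and the gap was 0.891 of the group's range. Of 45 groups of 4 replicates checked over the 9 genes this was the only such value, and chance alone gives about 1 in 20.

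The genotype difference of Nfia differed between the regions. Its log2 fold change from WT to CD11c-negative APP cells was lower by 1.42 in hippocampus than in cortex (interaction -1.42, edgeR adjusted p = 0.00109). Nfia was lower in 4 of 4 APP hippocampal replicates than in every WT one, whereas the cortical ranges overlapped. Region and the first number in the titles, possibly a library set, cannot be told apart in this comparison.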

How the results depend on the processing

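The members' folds counted here were 42, most of them not called in the main fit, and a fold that stayed uncalled counts as kept. Of 366 fits of these folds that left out 1 replicate, 349 kept direction and stayed called or uncalled. Of the rest, 7 lost and 2 gained a call, and 8 changed sign. Of 346 other alternatives the numbers were 290, 16, 20 and 20. Of 288 fits of the printed list genes that left out 1 replicate 240 kept their call and 48 lost it. Of 314 other alternatives 235 kept it, 77 lost it and 2 changed sign. All of those list gene folds were called in the main fit, so their numbers cannot be read beside those of the members. Leaving out 1 replicate gave 2 to 3 called members at the cortical gate and 0 to 1 for region in WT. For genotype in hippocampus it gave 1 to 2 (2 without WT replicate 4, adding Zfhx3). For CD11c-positive APP against WT in hippocampus it gave 1 to 3 (1 without CD11c-positive replicate 1-2). How many of all genes those fits called is not given here, so whether all genes moved with the members is not shown.

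Cells without other cell types' markers gave 1 called member at the cortical gate, 1 in each CD11c-positive comparison with WT and 0 in the genotype by region interaction. Of its 9914 genes that fit called 45 at the cortical gate, 47 and 41 against WT in cortex and hippocampus, and 6 in the interaction. Numbers of cells with a count gave 5 and 4 at the cortical and hippocampal gates, 3 for genotype in hippocampus and 6 for CD11c-positive APP against WT in cortex, where that fit called 1331, 975, 669 and 1306 of its 4175 genes, so these numbers cannot be read beside those of the summed counts. DESeq2 gave 1 at the hippocampal gate, 2 for genotype in hippocampus, 2 for region in CD11c-positive APP, 1 for gate by region and 2 for genotype by region. In that order it called 529, 1058, 648, 246 and 785 of all 14892 genes, against 82, 226, 33, 0 and 150 with edgeR. Genes per cell as a covariate gave 0 for CD11c-positive APP against WT in hippocampus and 0 for genotype by region, for which matching tags also gave 0. Of all genes those fits called 2, 11 and 0, in that order. Equal weights per cell gave 2 for genotype in hippocampus, where that fit called 226 of its 12862 genes. The replicate block gave 0 for region in CD11c-negative APP, where 0 of the 9099 genes of that fit passed. Among the members the block changed no other call. Fitting those groups alone without it kept 1, and 234 of the 9099 genes passed. Matching tags left no CD11c-positive hippocampus to test. The causes were not tested.

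Sign changes were limited to folds that were not called, except 2 of Tyrobp. At the cortical gate Mef2c went from 0.03 to -0.042 (RLE size factors), -0.016 (no filter), -0.80 (genes per cell), -0.011 (equal weights), -0.077 (cells with a count), -0.32 (matching tags), -0.040 (DESeq2), -5.9e-05 (replicate block) and -0.051 (groups alone), and from -0.24 to 0.24 without 1 replicate. Irf8 there went to -0.26 (genes per cell) and -0.30 (matching tags), and from -0.091 to 0.55 without 1 replicate. Spi1 went to 0.29 without other markers, and Runx1 to 1.01, or 0.22 with genes per cell. At the hippocampal gate Mef2c went to -0.74 (genes per cell) and -0.14 (cells with a count), and from -0.023 to 0.48 without 1 replicate. Irf8 went to -0.0344 (RLE size factors), -0.0339 (DESeq2) and -0.54 (genes per cell), and Nfia to 0.020 (genes per cell). Tyrobp went to -0.11 at the hippocampal gate and -0.15 against WT hippocampus by cells with a count. RLE size factors moved the median of all genes from 0.18 to 0.38 in the genotype by region interaction, from -0.11 to -0.24 in the gate by region interaction, from 0.01 to 0.14 for genotype in hippocampus, from 0.15 to 0.02 for CD11c-positive APP against WT in cortex and from -0.22 to -0.34 for region in WT.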
